A study of Arabidopsis thaliana with 11 samples.

Results

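Seedlings of Arabidopsis thaliana with lowered PTB3, the line MI3, were set against wild-type seedlings, WT, over all genes with measurable RNA. The authors' deposited table gives RPKM, which scales reads to gene length and library size, for 33602 genes in 6 columns, 1 column for each genotype. Comparison was limited to genes that reached 1 RPKM in 2 or more of the 6 columns, which 19669 genes did. The question behind the series is how splicing differs when any of 3 polypyrimidine tract-binding protein homologues is raised or lowered, and its 11 libraries cover 6 genotypes. MI3 seedlings carried a microRNA construct directed at PTB3 (AT1G43190), and the column stands for 1 library. WT seedlings were untransformed Col-0, and the column stands for 2 libraries, read here as combined because the table has 1 column for each genotype. Both were of the Columbia ecotype, 11 days old, and grown under continuous light on a medium with sucrose. The promoter and the precursor of the construct, and the number of independent lines, are not stated in these sources. The other columns, used as context, are MI12 (a microRNA construct against PTB1 and PTB2) and OE1, OE2 and OE3 (overexpressors of PTB1, PTB2 and PTB3).

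Polypyrimidine tract-binding proteins attach to pyrimidine-rich stretches of RNA and influence splice site choice, stability and translation. Plants sense phosphate through SPX proteins, which hold the transcription factor PHR1 inactive while phosphate is plentiful. When phosphate runs short PHR1 activates microRNA399, phosphate transporters, secreted phosphatases and enzymes that replace phospholipids by galactolipids and sulfolipids. Root hairs, which take up much of the phosphate, lengthen under the same shortage.

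With 1 column for each genotype no spread between samples can be had, so no difference below has a test or a p-value, and a difference of this MI3 library from the rest cannot be told apart from a difference of the genotype. Depth, recovered from the size of the smallest steps in RPKM, was 45.9 M (mega) reads in MI3 and 93.4 M reads in WT, with 79.3 M to 96.2 M in the other columns. The median compared gene rested on 756 reads in MI3 and 1480 reads in WT. Intervals are 95% exact binomial counting intervals of the MI3 to WT ratio on reads recovered in this way. They cover counting error only. Differences are MI3 minus WT on the log2(RPKM + 1) scale, which understates the change of low genes, and 2-fold means at least 1 on that scale, so that a gene of few RPKM can fall short of it although its plain ratio passes 2.

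In MI3, 508 of the 19669 compared genes (2.58%) were at least 2-fold higher than in WT and 407 (2.07%) at least 2-fold lower, together 915 (4.65%). At least 4-fold, 44 genes (0.224%) were higher and 55 (0.28%) lower. By any amount, 11160 genes (56.7%) lay above WT and 8504 (43.2%) below it, and the median difference was 0.05. Genes past 2-fold were spread over the range of levels: among the 4917 genes with the highest mean level 163 were higher and 205 lower, and among the 4918 with the lowest 126 were higher and 60 lower. The column was also extreme among the 6. MI3 had the highest value of all columns in 6998 genes (35.6%) and the lowest in 4747 (24.1%). It was at least 2-fold above each of the 5 other columns in 139 genes (0.707%) and at least 2-fold below each of them in 108 (0.549%). For OE1, the next column by this count, these numbers were 5 and 20, and WT had 0 of either kind. A column of 1 library and columns of 2 combined libraries differ in their noise, and the part of this in the counts was not tested.

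**Figure D1:**
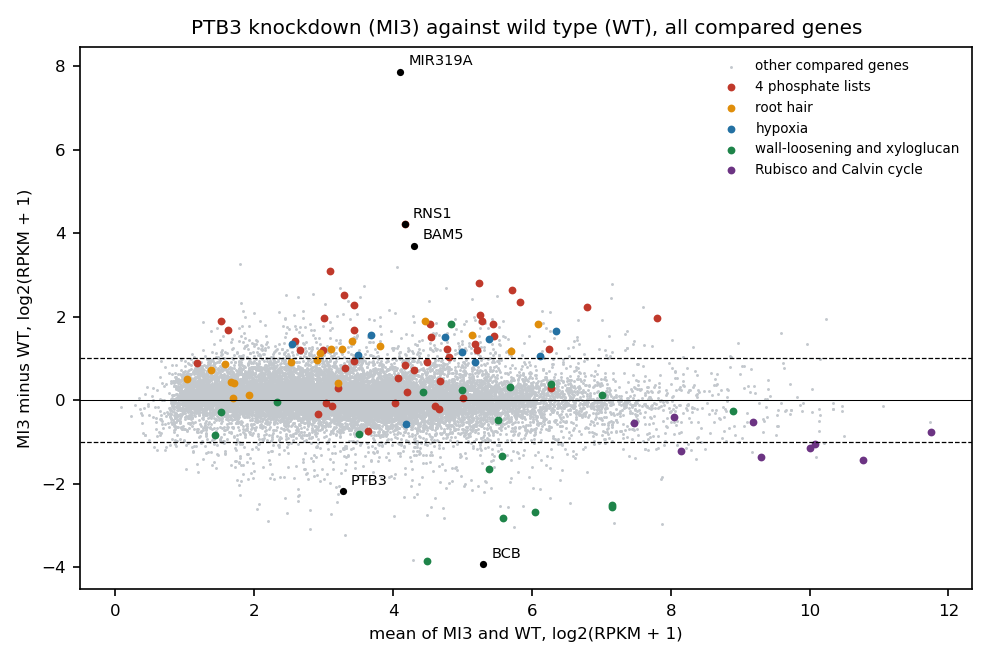
Each point is a compared gene, with the mean of the MI3 and WT levels on the horizontal axis and MI3 minus WT on the vertical axis, both in log2(RPKM + 1), and dashed lines at 2-fold. Most members of the phosphate, root hair and hypoxia lists lie above 0, the Rubisco and Calvin cycle members all lie below 0 and mostly at high levels, and MIR319A stands alone at 7.87.

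PTB3 itself, on TAIR10.1 chromosome 1, 16275108 to 16278742 of the minus strand, stood at 3.54 RPKM in MI3, against 19.5 RPKM in WT, with 18.4 RPKM in MI12, 21.3 in OE1, 20.1 in OE2 and 65.4 in OE3. MI3 had the lowest value of the 6, a ratio to WT of 0.181 with an interval of 0.161 to 0.204 and a log2 difference of -2.18. The paralogues were nearer to WT: PTB1 was at 7.7 RPKM in MI3 and 9.46 RPKM in WT, and PTB2 at 8.04 RPKM in MI3 and 9.03 RPKM in WT. The ribosomal protein gene RP1, the nearest compared gene on the chromosome, was at 295 RPKM in MI3 and 312 RPKM in WT. The largest difference of all was at the microRNA gene MIR319A, at 261 RPKM in MI3, against 0.121 RPKM in WT (about 2 reads), a ratio of 2158 with an interval of 593 to 17730. It was at 316 RPKM in MI12, the other line with a microRNA construct, and at most 0.315 RPKM in the 3 overexpressors. Reads from a construct and from the gene itself are not separated in this table, and the part of the construct in this value was not tested.

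Among the 4 phosphate lists, which hold 55 genes, 46 were compared, 27 (58.7%) were at least 2-fold higher in MI3 than in WT and 0 were at least 2-fold lower, against 2.58% and 2.07% of all compared genes. Their median difference was 1.21. MI3 had the highest of the 6 values in 38 of the 46, against 35.6% of all compared genes. These and all other lists were drawn up with earlier results of these data known. The shares of 2.58% higher and 2.07% lower are also the background of every list below. Likewise MI3 was the highest column in 35.6% and the lowest in 24.1% of all compared genes, the background of such counts below. In the signalling list 6 of 13 compared members were 2-fold higher, with a median of 0.89. The members that sit between phosphate status and transporter turnover are shown first by sequence, because they act through short matches between RNAs. In the mature microRNAs below, read from the TAIR10.1 genome in RNA letters, capitals mark the seed, bases 2 to 8.
miR399d: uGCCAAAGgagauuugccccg
miR399c-3p: uGCCAAAGgagaguugcccug
miR827: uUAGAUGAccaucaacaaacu
The miR399 pair share 1 seed and miR827 has another. PHO2, an E2 conjugase that marks phosphate transporters for turnover, holds 5 stretches upstream of its coding sequence with at most 2 mismatches to miR399d, on the minus strand, 3 of which are shown with paired bases in capitals and mismatched or G:U bases in lower case.
PHO2 chr2:14281884-14281904: uuGGGCAAAUCUCCUUUGGCA
PHO2 chr2:14282106-14282126: uaGGGCAAAUCUuCUUUGGCA
PHO2 chr2:14281973-14281993: uaGGGCAuAUCUCCUUUGGCA
NLA, a ubiquitin ligase of the same transporters, holds 1 stretch for miR827 on the plus strand, with 1 mismatch.
NLA chr1:635401-635421: uGUUUGUUGAUGGUCAUCUAA

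The locus of MIR399D was at 23.9 RPKM in MI3, against 1.92 RPKM in WT, with 13.9 RPKM in OE3, 4.36 in OE2, 2.19 in MI12 and 1.14 in OE1. Its ratio to WT was 12.5, with a wide interval of 7.51 to 21.8 because the WT value rests on few reads. MIR399C was at 2.06 RPKM in MI3, against 0.654 RPKM in WT, and MIR827 at 4.51 RPKM in MI3, against 0.717 RPKM in WT. Few reads lay behind these values, 11 in MI3 and 7 in WT for MIR399C, and 37 and 12 for MIR827. The interval of the MIR399C ratio was 1.13 to 9.72, and OE3 was at 1.65 RPKM. MI3 had the highest value of all columns at each of the 3 loci. The RNAs of their targets differed from each other. PHO2 was at 31.9 RPKM in MI3, against 30.5 RPKM in WT, a log2 difference of 0.06, and lay within the range of the other columns, 25.7 to 35.4 RPKM. NLA was at 8.63 RPKM in MI3, against 15.1 RPKM in WT, the lowest value of the 6 columns, with a ratio of 0.571 and an interval of 0.521 to 0.624. These are values of the precursor and messenger RNAs, and mature microRNAs were not measured. The noncoding RNAs IPS1 and AT4, which capture miR399, were also highest in MI3. IPS1 was at 73.8 RPKM in MI3, against 19.1 RPKM in WT, and AT4 was at 438 RPKM in MI3, against 112 RPKM in WT. SPX1 and SPX3, sensors whose genes are themselves induced by shortage, had their highest values in MI3. SPX3 was at 22.9 RPKM in MI3, against 3.92 RPKM in WT. SPX1 was at 239 RPKM in MI3, against 50.3 RPKM in WT, and its ratio was 4.74, with an interval of 4.6 to 4.89, and OE3 came next at 109 RPKM. SPX2 was at 23 RPKM in MI3 and 12.4 RPKM in WT, short of 2-fold. SPX4, a sensor that is not induced by shortage, had its lowest value of the 6 in MI3, at 5.71 RPKM in MI3, against 7.51 RPKM in WT. The transcription factor PHR1, whose activity is set mainly at the protein level, was at 22.1 RPKM in MI3 and 24.4 RPKM in WT, and its relative PHL1 at 7.25 RPKM in MI3 and 8.08 RPKM in WT.

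**Figure D2:**
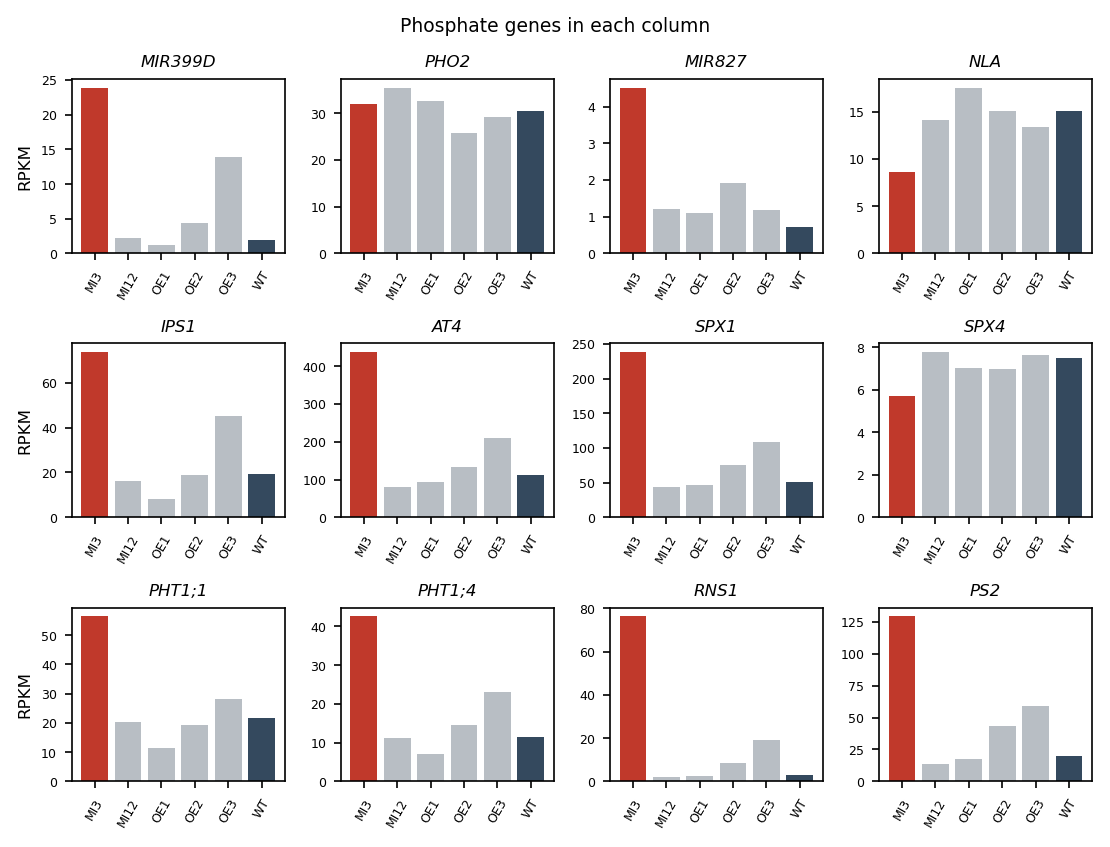
Bars give the RPKM of 12 phosphate genes in each column, with MI3 in red, WT in dark blue and the other 4 lines in grey, each panel on its own axis from 0. MI3 has the highest bar for MIR399D, MIR827, IPS1, AT4, SPX1, the 2 transporters, RNS1 and PS2, PHO2 lies between 25.7 and 35.4 RPKM in every column, NLA and SPX4 are lowest in MI3, and OE3 has the second bar for RNS1 at 19.1 RPKM.

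The transport list had 6 of 8 compared members at least 2-fold higher in MI3, with a median of 1.29. All 8 were highest in MI3, against 35.6% of all compared genes. Of the PHT1 family, the uptake transporters of the plasma membrane, PHT1;1 was at 56.6 RPKM in MI3, against 21.7 RPKM in WT. PHT1;2 was at 38.5 RPKM in MI3, against 12.8 RPKM in WT. PHT1;1 and PHT1;2 are close in sequence, so reads may be split between them. PHT1;4 was at 42.7 RPKM in MI3, against 11.3 RPKM in WT, with OE3 next at 23 RPKM. PHT1;5, which moves phosphate between source and sink organs, was at 4.57 RPKM in MI3, against 0.485 RPKM in WT, a log2 difference of 1.91 and the largest of the list. The other 4 PHT1 genes of the list did not reach 1 RPKM in 2 columns and were not compared, and they too had their highest value in MI3. Of these PHT1;7 was at 2.04 RPKM in MI3, against 0.105 RPKM in WT, and PHT1;3 at 1.88 RPKM in MI3, against 0.642 RPKM in WT. The exporter PHO1, which loads phosphate into the xylem, was at 40.9 RPKM in MI3, against 16.8 RPKM in WT, and its homologue PHO1;H1 at 11.1 RPKM in MI3, against 4.26 RPKM in WT. Differences of export and traffic genes were smaller than those of the uptake transporters. PHF1, which helps PHT1 proteins leave the endoplasmic reticulum, was at 14.1 RPKM in MI3, against 6.83 RPKM in WT, a log2 difference of 0.95 and short of 2-fold.

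Of 13 compared scavenging enzymes 9 were at least 2-fold higher in MI3, with a median of 1.2. The ribonuclease RNS1, which frees phosphate from RNA, had the largest difference of any gene of the lists after MIR319A, at 76.6 RPKM in MI3, against 3.17 RPKM in WT, a ratio of 24.2 with an interval of 21.6 to 27.2. OE3 had 19.1 RPKM, OE2 8.62, and MI12 and OE1 2.23 and 2.46. The paralogue RNS2, which works in the vacuole, was at 29.1 RPKM in MI3, against 20.8 RPKM in WT. The phosphatase PEPC1 (AT1G17710) was at 98.6 RPKM in MI3, against 13.2 RPKM in WT. The related PS2 was at 129.7 RPKM in MI3, against 20.0 RPKM in WT, and in both genes OE3 and OE2 lay between MI3 and WT. The purple acid phosphatases differed among themselves. PAP17 was furthest from WT, at 128 RPKM in MI3, against 24.1 RPKM in WT, and PAP12 was next, at 55.4 RPKM in MI3, against 23.5 RPKM in WT. PAP10, which acts at the root surface, was at 24.4 RPKM in MI3, against 14.3 RPKM in WT, and PAP26 at 84.5 RPKM in MI3, against 69.2 RPKM in WT, both short of 2-fold. The glycerophosphodiester phosphodiesterase GDPD1 was at 76.4 RPKM in MI3, against 17.799 RPKM in WT, whereas its relative GDPD2 was at 14.9 RPKM in MI3, against 15.75 RPKM in WT. The glycerol-3-phosphate permease G3Pp1 was at 80.8 RPKM in MI3, against 22.1 RPKM in WT, and the kinases PPCK1 and PPCK2, which phosphorylate phosphoenolpyruvate carboxylase, had log2 differences of 1.03 and 1.2.

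In membrane lipid remodelling 6 of 12 compared genes were at least 2-fold higher, with a median of 1.07, or 0.82 when set against the median of MI12, OE1, OE2 and OE3. The phospholipase C NPC4, which breaks down phospholipids, was at 22.4 RPKM in MI3, against 3.12 RPKM in WT. Of the zeta phospholipases D, PLDZ2 was at 8.86 RPKM in MI3, against 2.7 RPKM in WT, while PLDZ1 was at 7.01 RPKM in MI3, against 7.45 RPKM in WT. Of the galactolipid synthases MGD3 (RefSeq MGDC) was at 14.9 RPKM in MI3, against 3.06 RPKM in WT, and MGD2 at 18.3 RPKM in MI3, against 5.04 RPKM in WT. By contrast MGD1, which makes most of the chloroplast's galactolipid, was at 22.3 RPKM in MI3, against 26.2 RPKM in WT, the lowest of the 6 columns. The sulfolipid synthesis enzyme SQD1 was at 115 RPKM in MI3, against 48.9 RPKM in WT, and SQD2 was at 73.4 RPKM in MI3, against 24.8 RPKM in WT.

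The PHR1-binding sequence, P1BS, was looked for as GNATATNC in the 300 bases upstream of each annotated gene start. The motif reads the same on both strands. Of the 46 phosphate genes 15 (32.6%) held it, against 1287 of 19490 compared nuclear genes (6.6%). Among genes at least 2-fold higher in MI3 the share was 14.3%, and among genes at least 2-fold lower it was 7.69%. Within the phosphate lists 11 of the 15 genes with a match were 2-fold higher in MI3, with a median of 1.68, and 16 of the 31 without one, with a median of 1.2. A match describes the letters of the window and is not shown to be a bound site. SPX1, PAP17 and RNS1 hold none in this window, and NLA, with the lowest difference of the phosphate lists, -0.74, holds a match. The stretches below, on the strand of the gene and from TAIR10.1, show the matches in capitals with their flanks for 6 genes that were among the higher ones in MI3.
MIR399D chr2:14443189-14443296: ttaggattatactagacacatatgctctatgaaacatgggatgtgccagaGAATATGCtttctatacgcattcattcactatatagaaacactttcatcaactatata
MIR827 chr3:22122975-22123082: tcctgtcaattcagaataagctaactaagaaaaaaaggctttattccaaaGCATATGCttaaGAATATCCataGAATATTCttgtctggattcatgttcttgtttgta
SPX3 chr2:18606270-18606377: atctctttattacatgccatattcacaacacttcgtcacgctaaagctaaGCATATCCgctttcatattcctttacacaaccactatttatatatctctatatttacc
PS2 chr1:27466508-27466615: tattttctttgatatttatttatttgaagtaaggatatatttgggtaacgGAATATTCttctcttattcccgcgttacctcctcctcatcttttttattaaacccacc
GDPD1 chr3:350016-350123: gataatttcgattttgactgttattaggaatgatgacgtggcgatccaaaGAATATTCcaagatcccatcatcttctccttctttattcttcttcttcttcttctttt
NPC4 chr3:845258-845365: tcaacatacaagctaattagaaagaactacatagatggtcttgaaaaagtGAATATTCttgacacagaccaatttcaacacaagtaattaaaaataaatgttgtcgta
MIR827 holds 3 matches within the stretch shown, at 96, 84 and 73 bases upstream of the annotated start. SPX3 and GDPD1 each hold another match outside the stretch shown, at 213 bases upstream in SPX3 and 127 in GDPD1. MIR399D, MIR827, PS2, GDPD1 and NPC4 lie on the minus strand and SPX3 on the plus strand.

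Another 6 motifs were looked for in the same windows on both strands. The rapid stress response element CGCGTT was in 8.44% of genes at least 2-fold lower in MI3 and in 1.78% of genes at least 2-fold higher, against 3.23% of all compared nuclear genes. It was in 26.3% of the wall-loosening and xyloglucan list, that is in 5 of 19 windows. The G-box CACGTG was in 10.7% of the higher and 7.44% of the lower genes, against 7.8% of all. The abscisic acid element ACGTGNC, which overlaps the G-box, was in 11.7% of the higher and 8.93% of the lower genes, against 10.3% of all. The other 3 lay nearer together, with shares given for the higher genes, the lower genes and all compared genes, in that order. The heat shock element GAANNTTC was in 13.9%, 13.4% and 11.2%, the drought element GCCGAC in 4.55%, 4.22% and 3.37%, and the W-box TTGACN in 52.1%, 54.3% and 50.2%. In the 4 phosphate lists the heat shock element was in 13 of 46 windows (28.3%), also above its share of all genes. The P1BS form GAATATTC matches GAANNTTC as well, so the counts of P1BS and of the heat shock element overlap.

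**Figure D3:**
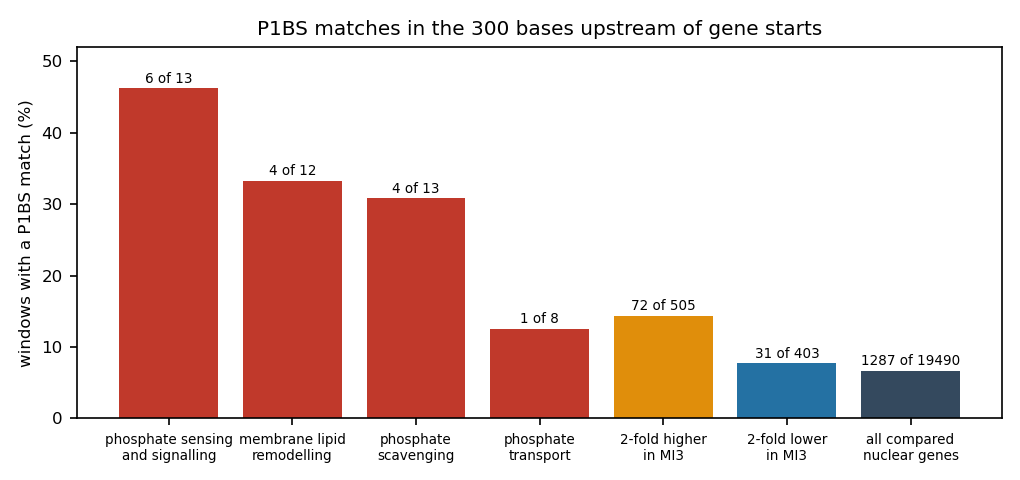
Bars give the share of upstream windows of 300 bases that hold a P1BS match, in percent, for the 4 phosphate lists, the genes past 2-fold in MI3 and all compared nuclear genes, with counts above the bars. The signalling list stands highest with 6 of 13 windows, and genes lower in MI3 lie close to the share of all genes, 6.6%.

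Of 51 compared microRNA loci 6 were at least 2-fold higher in MI3 and 0 at least 2-fold lower. The shares of all compared genes were 2.58% and 2.07%, and the median of the loci was 0.42. Besides MIR319A, MIR399D and MIR827 these were MIR841a, MIR825 and MIR157a. MIR841a was at 4.95 RPKM in MI3, against 1.06 RPKM in WT. MIR825 was at 9.82 RPKM in MI3, against 3.65 RPKM in WT, and MIR157a at 3.28 RPKM in MI3, against 0.935 RPKM in WT, with MI12 close behind at both, at 8.51 and 2.98 RPKM. Of the loci of microRNA156, which maintains the juvenile phase, MIR156a was at 8.82 RPKM in MI3, against 4.53 RPKM in WT, and MIR156d at 2.72 RPKM in MI3, against 0.865 RPKM in WT, short of 2-fold. The microRNA156 targets SPL3, SPL4 and SPL5, which promote the change to the adult phase and flowering, each had the lowest value of the 6 columns in MI3. SPL5 was at 0.633 RPKM in MI3, against 2.86 RPKM in WT, the 1 of the 3 past 2-fold. SPL4 was at 2.19 RPKM in MI3, against 4.02 RPKM in WT, and SPL3 at 0.502 RPKM in MI3, against 1.34 RPKM in WT. SPL9, another target, was at 1.61 RPKM in MI3 and 1.53 RPKM in WT. The targets of microRNA319, the TCP genes that limit leaf growth, were likewise lowest in MI3 in 5 of 5, against 24.1% of all compared genes. Their differences ran from -0.12 (TCP24) to -1.04 (TCP10). TCP10 was at 10.9 RPKM in MI3, against 23.4 RPKM in WT, and TCP4 at 8.77 RPKM in MI3, against 14.4 RPKM in WT. In MI12, where MIR319A was also high, TCP10 was at 22.9 RPKM and TCP4 at 13.1 RPKM, each nearer to WT than in MI3. Mature miR319a was not measured, and the part of the construct in the MIR319A reads was not tested. The mature microRNA and its stretches in 3 of these targets are given below to show the pairing, with the seed in capitals in the microRNA and paired bases in capitals in the targets.
miR319a: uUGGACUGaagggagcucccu
TCP4 chr3:5063300-5063320: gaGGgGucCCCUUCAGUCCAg
TCP10 chr2:13221210-13221230: AaGGgGuaCCCUUCAGUCCAg
TCP24 chr1:10628989-10629009: uaGGgGgaCCCUUCAGUCCAA

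All 19 compared root hair genes lay above WT in MI3, against 56.7% of all compared genes, 9 of them by 2-fold or more, with a median of 0.96. LRX1, an extensin that shapes the hair wall, was at 41.5 RPKM in MI3, against 10.4 RPKM in WT. The proline-rich wall protein PRP3 was at 127 RPKM in MI3, against 35.3 RPKM in WT, and the peroxidase RHS19 at 59.6 RPKM in MI3, against 19.6 RPKM in WT. In each of these OE3 was the next highest column and OE1 the lowest. The hair-specific expansin EXPA7 was at 16.3 RPKM in MI3, against 5.46 RPKM in WT, and EXPA18 at 13.6 RPKM in MI3, against 5.3 RPKM in WT. The transcription factors that start hair growth, RHD6, RSL2 and RSL4, had differences of 0.73, 0.87 and 0.43, and the patterning genes GL2 and CPC 0.13 and 0.05. Proline-rich extensins, a family grouped by its RefSeq product name after the values were seen, were at least 2-fold higher in 10 of 10 compared members, with a median of 1.62. AT3G54580 was at 419 RPKM in MI3, against 88.5 RPKM in WT. EXT6 was at 148 RPKM in MI3, against 32.9 RPKM in WT, and AT2G43150, the most abundant, was at 1351 RPKM in MI3, against 441 RPKM in WT. Extensins share repeats, so their values may draw on common reads.

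The 7 root hair cell markers summed to 214 RPKM in MI3 and 63.5 RPKM in WT, with 39.3 to 121 RPKM in the other columns, and none was at 0. The markers and the root hair list share genes. The 7 endodermis markers summed to 28.1 RPKM in MI3 and 24.6 RPKM in WT, and of 11 compared endodermis and root cylinder genes 0 were past 2-fold, with a median of 0.22. CASP1, which builds the Casparian strip, was at 10.9 RPKM in MI3 and 9.99 RPKM in WT, and the suberin hydroxylase CYP86A1 at 16.1 RPKM in MI3 and 10.3 RPKM in WT. Leaf mesophyll markers summed to 7823 RPKM in MI3 and 11810 RPKM in WT, and phloem companion cell markers to 97.0 RPKM in MI3 and 101 RPKM in WT. Guard cell markers summed to 586 RPKM in MI3 and 779.8 RPKM in WT, a sum made up mostly of TGG1. TGG1 was at 552 RPKM in MI3, against 750 RPKM in WT. FAMA was near WT, at 10.4 RPKM in MI3 and 10.6 RPKM in WT, and KAT1 and MYB60 were above WT. Of 8 embryo and seed markers, which summed to 1.95 RPKM in MI3 and 5.09 RPKM in WT, 2 were at 0 in MI3 and 1 in WT. Their sum varied widely among the other lines, from 12.9 RPKM in OE2 to 42.5 RPKM in MI12, all above WT. Whole seedlings were used, so more cells of a type and more RNA per cell cannot be told apart, and the part of tissue proportions in the results below and above was not tested.

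The hypoxia list had 8 of 10 compared members (80.0%, beside 2.58% of all) at least 2-fold higher in MI3. None was 2-fold lower, and the median was 1.26. Its members carry out fermentation and sense oxygen. Alcohol dehydrogenase ADH1 was at 144 RPKM in MI3, against 45.1 RPKM in WT. Pyruvate decarboxylase PDC1 was at 68.6 RPKM in MI3, against 24.1 RPKM in WT, and the sucrose synthase SUS4 at 44.3 RPKM in MI3, against 14.9 RPKM in WT. The lowest values among the columns were in OE1, where ADH1 was at 10.7 RPKM, PDC1 at 4.02 RPKM and SUS4 at 2.73 RPKM. The plant cysteine oxidases PCO1 and PCO2, which mark group VII ethylene response factors for decay when oxygen is present, were both highest in MI3. PCO1 was at 15.4 RPKM in MI3, against 6.74 RPKM in WT, and PCO2 at 21 RPKM in MI3, against 6.49 RPKM in WT. The factor HRE2 was at 8.29 RPKM in MI3, against 2.64 RPKM in WT, whereas its relative HRE1 was at 14 RPKM in MI3, against 21.2 RPKM in WT, the only member of the list below WT. The root hair marker sum was likewise highest in MI3 and lowest in OE1, and its part in the hypoxia values was not tested.

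**Figure D4:**
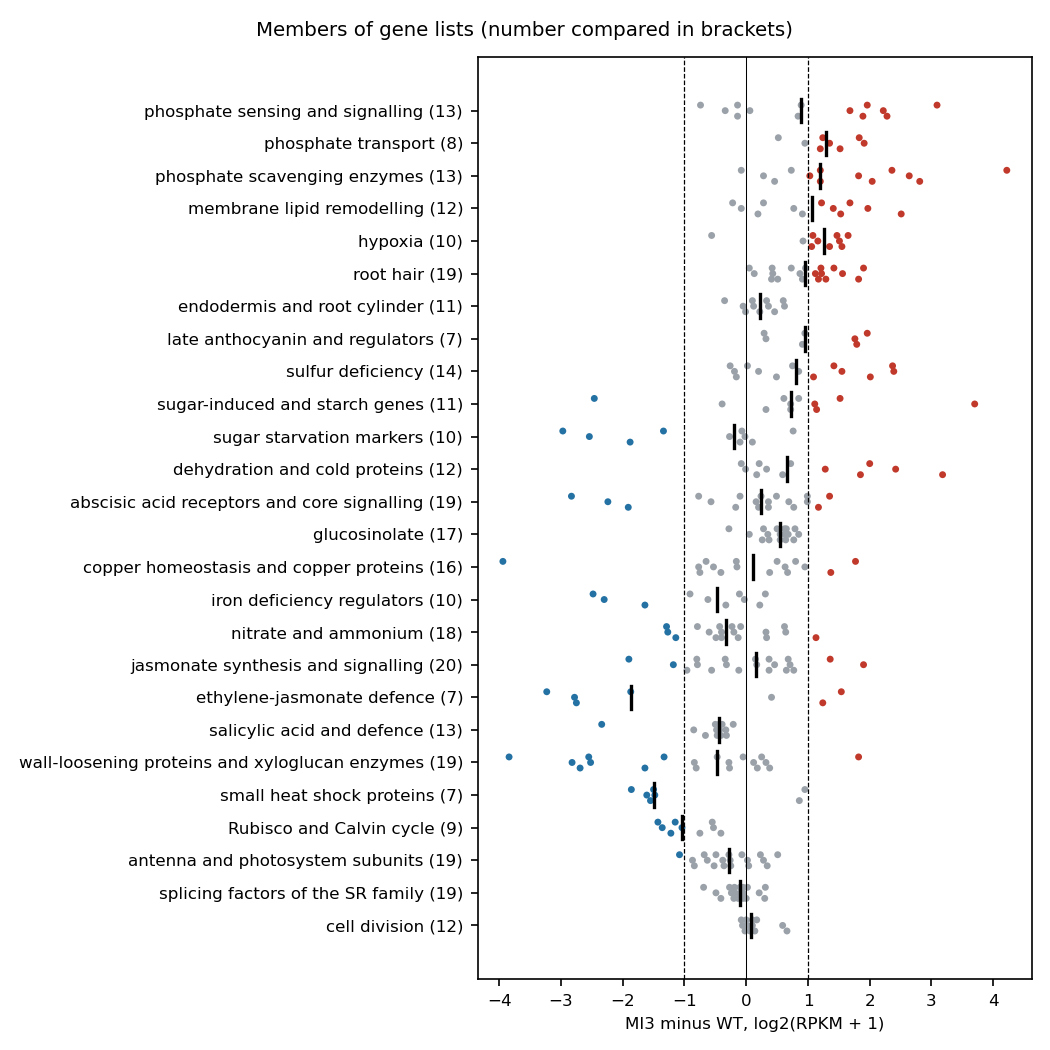
Each point is a compared member of a gene list, placed by MI3 minus WT in log2(RPKM + 1), red at 2-fold or more above WT, blue at 2-fold or more below, with the list median as a bar. The 4 phosphate lists, hypoxia and root hair lie to the right, small heat shock, Rubisco and ethylene-jasmonate defence medians lie left of -1, and splicing factors and cell division genes cluster near 0.

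Sulfur deficiency genes had 6 of 14 compared members (42.9%, beside 2.58% of all) at least 2-fold higher in MI3. None was 2-fold lower, and the median was 0.80. SDI1, which curbs glucosinolate synthesis when sulfur is short, was at 22.4 RPKM in MI3, against 3.48 RPKM in WT. The small LSU proteins accumulate under sulfur shortage, and 3 of their genes were highest in MI3. LSU1 was at 50.9 RPKM in MI3, against 9.04 RPKM in WT, LSU3 at 17.3 RPKM in MI3, against 3.55 RPKM in WT. LSU2 was at 40.8 RPKM in MI3, against 13.3 RPKM in WT. The reductase APR1 of sulfate assimilation was at 118 RPKM in MI3, against 43.2 RPKM in WT, while the ATP sulfurylase APS1 was at 191 RPKM in MI3, against 213 RPKM in WT. The OE3 column lay between, with SDI1 at 12.2 RPKM and LSU1 at 22.5 RPKM. The glucosinolate genes had 0 of 17 past 2-fold, with a median of 0.55. MI3 had the highest value in 15 of the 17, against 35.6% of all compared genes. BCAT4, of the methionine-derived branch, was furthest with a difference of 0.85, followed by CYP79B3 of the tryptophan branch with 0.79.

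Of 10 compared iron regulators 3 were at least 2-fold lower in MI3 and 0 higher, with a median of -0.48, and 2 lay above WT. The 4 related factors that report iron shortage in roots and leaves were all lowest in MI3. BHLH100 was at 0.767 RPKM in MI3, against 8.88 RPKM in WT, with 38.7 RPKM in OE1. BHLH38 was at 1.78 RPKM in MI3, against 12.7 RPKM in WT, and BHLH39 at 2.72 RPKM in MI3, against 10.6 RPKM in WT. The spread among the other lines was wide, with BHLH38 between 6.84 and 36.2 RPKM. BHLH101 was at 2.23 RPKM in MI3, against 5.06 RPKM in WT. BHLH38 and BHLH39 are close copies. Their partner FIT was near WT, at 2.54 RPKM in MI3, against 2.81 RPKM in WT. The list of uptake, transport and storage genes was split, with 2 of 19 higher, 2 lower and a median of 0.05. The iron transporter IRT1 was at 1.46 RPKM in MI3, against 7.92 RPKM in WT. CYP82C4, which makes an iron-mobilising coumarin, was at 0.088 RPKM in MI3, against 1.49 RPKM in WT. The neighbouring gene IRT2 was on the other side, at 5.75 RPKM in MI3, against 1.96 RPKM in WT. So was the nicotianamine synthase NAS3, at 14.6 RPKM in MI3, against 4.74 RPKM in WT. The ferritin FER1, an iron store, was at 139.5 RPKM in MI3, against 138 RPKM in WT, with 40.5 to 77.9 RPKM in the other 4 lines.

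Copper genes showed 2 of 16 compared members at least 2-fold higher (12.5%, beside 2.58% of all) and 1 lower (6.25%, beside 2.07%). Their median was 0.11. FRO4 and FRO5, reductases of the root surface that respond to copper shortage, were the 2 higher ones. FRO4 was at 14.2 RPKM in MI3, against 4.85 RPKM in WT, and FRO5 at 5.53 RPKM in MI3, against 0.919 RPKM in WT. The microRNA gene MIR408 was at 5.47 RPKM in MI3, against 2.36 RPKM in WT, and MIR398C at 1.94 RPKM in MI3, against 0.689 RPKM in WT, both short of 2-fold. The copper/zinc superoxide dismutases CSD1 and CSD2 and their chaperone CCS, targets of microRNA398, were each lowest in MI3 but short of 2-fold. CSD1 was at 9.75 RPKM in MI3, against 15.8 RPKM in WT, CSD2 at 5.72 RPKM in MI3, against 10.5 RPKM in WT. CCS was at 7.39 RPKM in MI3, against 10.1 RPKM in WT. The iron superoxide dismutase FSD1, which takes their place when copper is short, was at 472 RPKM in MI3, against 334 RPKM in WT, the highest of the 6. BCB, a blue copper protein of the cell surface, had the lowest difference of all compared genes, -3.94, at 9.09 RPKM in MI3, against 153 RPKM in WT, with 44.4 RPKM in OE3 and 91.7 to 146 RPKM in the other 3 lines.

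Nitrate and ammonium genes had 1 of 18 compared members at least 2-fold higher (5.56%, beside 2.58% of all) and 3 lower (16.7%, beside 2.07%). Their median was -0.32. The nitrate-induced repressor LBD39 was at 19.1 RPKM in MI3, against 48 RPKM in WT. The ammonium transporter AMT1;1 was at 3.29 RPKM in MI3, against 9.35 RPKM in WT, and NRT1.8, which removes nitrate from the xylem, was at 4.22 RPKM in MI3, against 10.5 RPKM in WT. NRT1.5, which loads nitrate into the xylem, was at 61.4 RPKM in MI3, against 27.5 RPKM in WT. Of the assimilation enzymes nitrite reductase NIR1 was at 95.7 RPKM in MI3, against 146 RPKM in WT, and the plastid glutamine synthetase GS2 at 286 RPKM in MI3, against 495 RPKM in WT, both the lowest of the 6 columns.

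Genes that respond to sugar lay on both sides of WT. Of 10 compared sugar starvation markers 4 (40.0%, beside 2.07% of all) were at least 2-fold lower and 0 higher, with a median of -0.19. The raffinose synthase family gene DIN10 was at 82.6 RPKM in MI3, against 653 RPKM in WT, a ratio of 0.127 with an interval of 0.124 to 0.129. DIN10 was between 443 and 557 RPKM in the other 4 lines, well above MI3. Asparagine synthetase ASN1 was at 23.3 RPKM in MI3, against 140.4 RPKM in WT. SIP2, of the same family as DIN10, was at 26.1 RPKM in MI3, against 98.4 RPKM in WT, and TPS11, a trehalose phosphate synthase homologue, at 26.5 RPKM in MI3, against 68.6 RPKM in WT. The remaining markers, such as SEN1 at 140.4 RPKM in MI3 and 142 RPKM in WT, lay closer to WT. Of 11 sugar-induced and starch genes 4 (36.4%, beside 2.58% of all) were at least 2-fold higher and 1 (9.09%, beside 2.07%) lower. Their median was 0.72. The beta-amylase BAM5 was at 70.5 RPKM in MI3, against 4.49 RPKM in WT, a ratio of 15.68 with an interval of 14.7 to 16.7, with 5.91 RPKM in MI12 and 13.7, 25.6 and 35.8 RPKM in OE1, OE2 and OE3. The glucose 6-phosphate translocator GPT2 was at 20.1 RPKM in MI3, against 6.38 RPKM in WT, but OE1 had 18 RPKM. The starch synthesis subunit APL3 was at 14.2 RPKM in MI3, against 5.88 RPKM in WT, and the sucrose synthase SUS1 at 42.7 RPKM in MI3, against 19.3 RPKM in WT. The hexose transporter STP1, whose transcript sugar is known to repress although it stands in this list, was at 38.8 RPKM in MI3, against 218 RPKM in WT.

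In abscisic acid signalling 2 of 19 compared members were at least 2-fold higher and 3 lower, with a median of 0.24. The receptors and the phosphatases they inhibit are given apart, a division made after their values were seen. Of 9 receptors 6 lay below WT, against 43.2% of all compared genes, and 3 were at least 2-fold lower. Of the 9, 5 had their lowest value in MI3, against 24.1% of all compared genes. PYL5 was at 8.99 RPKM in MI3, against 70.2 RPKM in WT, with OE3 the next lowest at 29.1 RPKM. PYL6 was at 3.23 RPKM in MI3, against 19 RPKM in WT, and PYL4 at 42.6 RPKM in MI3, against 163 RPKM in WT. The other 2 were short of 2-fold, PYR1 at 70.2 RPKM in MI3, against 120.4 RPKM in WT, and PYL1 at 19.2 RPKM in MI3, against 28.8 RPKM in WT. The receptors PYL2, PYL8 and PYL9 were above WT, PYL8 at 90.7 RPKM in MI3, against 76.5 RPKM in WT. All 6 compared phosphatases had their highest value in MI3, against 35.6% of all compared genes, with a median of 0.73, though 0 passed 2-fold. Among them were ABI1 at 57 RPKM in MI3, against 28.2 RPKM in WT, and HAI1 at 5.06 RPKM in MI3, against 2.06 RPKM in WT. The synthesis gene NCED3 was at 5.52 RPKM in MI3, against 1.55 RPKM in WT, and the breakdown gene CYP707A1 at 6.38 RPKM in MI3, against 2.28 RPKM in WT.

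Dehydration and cold genes had 5 of 12 compared members (41.7%, beside 2.58% of all) at least 2-fold higher in MI3. None was 2-fold lower, and the median was 0.66. The chloroplast-protecting COR15A and COR15B, neighbours on chromosome 2, were furthest above WT. COR15A was at 49 RPKM in MI3, against 4.52 RPKM in WT, and in no other column did it pass 11.3 RPKM. COR15B was at 80.5 RPKM in MI3, against 14.3 RPKM in WT. COR414-TM1, a chloroplast membrane protein, was at 129 RPKM in MI3, against 34.9 RPKM in WT. Their activators CBF1, CBF2 and CBF3, which lie side by side, reached 1 RPKM in the MI3 column alone and so were not compared, at 1.68, 4.51 and 1.54 RPKM in MI3, against 0.034, 0.898 and 0.213 RPKM in WT. The dehydrins RAB18 and ERD10 were the 2 members below WT, both close to it, RAB18 at 8.04 RPKM in MI3, against 8.57 RPKM in WT, and ERD10 at 168 RPKM in MI3, against 169 RPKM in WT.

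**Figure D5:**
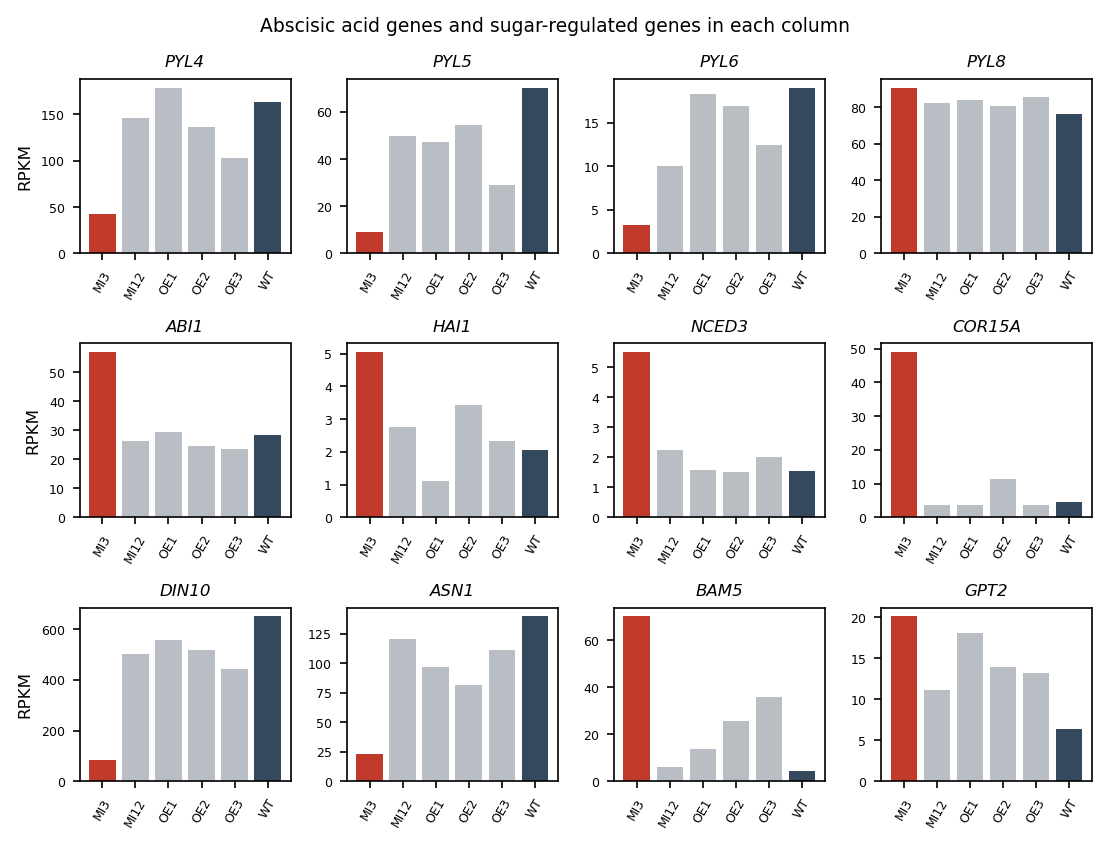
Bars give the RPKM of abscisic acid genes (the receptors PYL4, PYL5, PYL6 and PYL8, the phosphatases ABI1 and HAI1, the synthesis gene NCED3 and the response gene COR15A) and sugar-regulated genes in each column, MI3 in red and WT in dark blue, each panel on its own axis from 0. PYL4, PYL5, PYL6, DIN10 and ASN1 have their lowest bar in MI3, ABI1, HAI1, NCED3, COR15A, BAM5 and GPT2 their highest, and PYL8 differs little between columns.

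Defence genes of different hormones differed. All 13 compared salicylic acid genes lay below WT in MI3, against 43.2% of all compared genes. The 1 past 2-fold, a share of 7.69% beside 2.07% of all, was BGL2, at 9.77 RPKM in MI3, against 53.6 RPKM in WT. The list median was -0.44 in MI3, with -0.58 in OE3, -0.41 in OE1, -0.17 in MI12 and 0.26 in OE2, each against WT. MI3 had the lowest value of all columns in 2 of the 13, against 24.1% of all compared genes. PR1, the standard marker, was at 18.6 RPKM in MI3, against 30.005 RPKM in WT, with 15.3 to 60.6 RPKM in the other 4 lines. Of the 7 compared ethylene-jasmonate defence genes 4 were at least 2-fold lower and 2 higher, with a median of -1.87, or -0.86 with no filter on low values. The 4 lower ones were the near-identical defensins PDF1.2, PDF1.2b, PDF1.2c and PDF1.3, of which PDF1.2b was at 2.1 RPKM in MI3, against 10.3 RPKM in WT. PDF1.3 was at 2.23 RPKM in MI3, against 29.2 RPKM in WT, but also at 3.32 RPKM in OE3 and 4.2 RPKM in MI12. The chitin-binding HEL was at 255 RPKM in MI3, against 107 RPKM in WT, and the chitinase HCHIB at 63.4 RPKM in MI3, against 21.1 RPKM in WT. ORA59, the factor that activates the defensins, was at 9.06 RPKM in MI3, against 6.56 RPKM in WT.

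Jasmonate genes had 2 of 20 compared members at least 2-fold higher and 2 lower, with a median of 0.16. The allene oxide cyclase AOC1 of jasmonate synthesis was at 47.8 RPKM in MI3, against 18 RPKM in WT. The enzymes of jasmonoyl-isoleucine breakdown lay on opposite sides, with CYP94B3 at 4.69 RPKM in MI3, against 0.527 RPKM in WT, and CYP94C1 at 1.53 RPKM in MI3, against 8.43 RPKM in WT. Among the JAZ repressors JAZ6 was at 23.7 RPKM in MI3, against 54.8 RPKM in WT, and JAZ9 at 16.8 RPKM in MI3, against 33.8 RPKM in WT, short of 2-fold. JAZ1 was at 31.3 RPKM in MI3 and 28.1 RPKM in WT.

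Wall-loosening and xyloglucan genes had 7 of 19 compared members (36.8%, beside 2.07% of all) at least 2-fold lower in MI3. In this list 1 (5.26%, beside 2.58%) was 2-fold higher, and the median was -0.47. PHI-1 and EXO are related proteins of the cell surface. PHI-1 was at 4.94 RPKM in MI3, against 84.3 RPKM in WT, and EXO at 58.7 RPKM in MI3, against 342 RPKM in WT. Of the xyloglucan enzymes, which cut and rejoin wall polymers, XTH18 was at 24.9 RPKM in MI3, against 166 RPKM in WT. TCH4 was at 57.7 RPKM in MI3, against 342 RPKM in WT, and XTH23 at 22.7 RPKM in MI3, against 72.8 RPKM in WT. The expansin-like EXLA1 was at 17.1 RPKM in MI3, against 126 RPKM in WT. The next lowest PHI-1 and XTH23 values were in OE3, at 19.2 and 28.8 RPKM. The expansin EXPA8 was the member on the other side, at 52.8 RPKM in MI3, against 14.2 RPKM in WT. XTH17 was at 33.8 RPKM in MI3 and 28.3 RPKM in WT, and XTH19 at 87.1 RPKM in MI3 and 66.7 RPKM in WT. Of the calmodulin-like touch genes TCH3 was at 51.5 RPKM in MI3, against 402 RPKM in WT, whereas CML38 was at 16.2 RPKM in MI3, against 5.3 RPKM in WT. Of 14 compared rapid stress factors WRKY18 and WRKY46 were at least 2-fold lower and ERF105 and ERF5 at least 2-fold higher. WRKY18 was at 12 RPKM in MI3, against 49.2 RPKM in WT, and ERF105 at 14.9 RPKM in MI3, against 6.48 RPKM in WT.

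The Rubisco and Calvin cycle list lay below WT as a whole, with 5 of 9 compared members at least 2-fold lower. Its median was -1.04 (-0.84 against the median of MI12, OE1, OE2 and OE3). All 9 were lowest of the 6 columns in MI3, against 24.1% of all compared genes. Beside the small subunit genes, whose copies share reads, Rubisco activase RCA was at 751 RPKM in MI3, against 1549.7 RPKM in WT, and the glyceraldehyde phosphate dehydrogenase GAPB at 186 RPKM in MI3, against 433 RPKM in WT. The phosphoribulokinase PRK was at 229 RPKM in MI3, against 304 RPKM in WT, and sedoheptulose bisphosphatase SBPASE at 146 RPKM in MI3, against 214 RPKM in WT, short of 2-fold. The antenna and photosystem list had 1 of 19 past 2-fold, LHCB4.3, at 8.82 RPKM in MI3, against 19.8 RPKM in WT, and a median of -0.28. LHCB3 was at 1151 RPKM in MI3, against 949 RPKM in WT, while PSBS, which sheds excess light energy, was at 249 RPKM in MI3, against 456 RPKM in WT. The mesophyll marker sum, given above, was also lowest in MI3, but the sum and these lists share genes, and the part of mesophyll content in these values was not tested.

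Small heat shock genes were lower, 5 of 7 compared members at least 2-fold, with a median of -1.50, but OE3 was lower than MI3 in all 5. HSP17.4 was at 1.07 RPKM in MI3, against 6.54 RPKM in WT, with 0.739 RPKM in OE3 and 1.49 RPKM in MI12. HSP17.6II was at 1.04 RPKM in MI3, against 4.78 RPKM in WT, with 0.27 and 0.646 RPKM in the same 2 lines. The other 2 compared members were above WT, HSP18.2 at 4.63 RPKM in MI3, against 2.11 RPKM in WT. Of the larger chaperones HSP90.1 was at 15.4 RPKM in MI3, against 34.4 RPKM in WT, with 8.53 RPKM in OE3, and was the 1 of 12 compared past 2-fold. Against the median of MI12, OE1, OE2 and OE3 the small heat shock list had a median of -0.49.

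Runs of at least 3 neighbouring compared genes past 2-fold in the same direction were found at 5 places. On chromosome 5, 19428888 to 19461706, 4 genes of the thalianol cluster, which makes a root triterpene, were all higher. The synthase THAS1 was at 31.4 RPKM in MI3, against 6.24 RPKM in WT. CYP708A2 was at 37.9 RPKM in MI3, against 8.71 RPKM in WT, and CYP705A5 at 68.2 RPKM in MI3, against 19.9 RPKM in WT. In these genes the other lines were also above WT, with THAS1 at 14.8 RPKM in MI12 and 15.8 RPKM in OE3. On chromosome 3, 5562400 to 5583258, 5 genes were higher, with the nitrile specifier NSP1, which steers glucosinolate breakdown, at 311 RPKM in MI3, against 123 RPKM in WT, and the lectin PBP1 at 798 RPKM in MI3, against 311 RPKM in WT. The Rubisco small subunit genes RBCS3B, RBCS2B and RBCS1B formed the 1 run that was lower.

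Anthocyanin genes of the late pathway had 3 of 7 compared members at least 2-fold higher in MI3, with a median of 0.95, and 0 lower. They were LDOX and DFR, enzymes that lead to the pigments, and the transferase GSTF12, which helps carry them to the vacuole, with LDOX at 9.77 RPKM in MI3, against 1.76 RPKM in WT, and DFR at 9.19 RPKM in MI3, against 2.02 RPKM in WT. The early flavonoid genes had 0 of 6 past 2-fold, with a median of 0.22, TT4 at 126 RPKM in MI3, against 90.09 RPKM in WT. The senescence regulator NAP, at 36.8 RPKM in MI3, against 9.32 RPKM in WT, was the 1 of 9 members of its list past 2-fold. Metallothionein MT1B was at 496 RPKM in MI3, against 203 RPKM in WT, and the vacuolar aquaporin DELTA-TIP at 200.1 RPKM in MI3, against 442 RPKM in WT, each the 1 member of its list past 2-fold. Of the growth hormones, the auxin-conjugating enzyme GH3.5 was at 82.6 RPKM in MI3, against 29.4 RPKM in WT. The cytokinin response regulator ARR7 was at 4.91 RPKM in MI3, against 16 RPKM in WT, and the gibberellin synthesis gene GA20OX1 at 4.26 RPKM in MI3, against 1.63 RPKM in WT. Each was the 1 member of its list past 2-fold. The phytochrome-interacting factors split, with PIL2, a reported splicing target of PTB proteins, PIF3 and PIF4 above WT by 1.00, 0.86 and 0.84, and PIF7 at 3.81 RPKM in MI3, against 8.38 RPKM in WT, the lowest of the 6.

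Several groups lay near WT. None of 19 compared SR family splicing factors passed 2-fold, with a median of -0.10. Yet 15 of the 19 lay below WT, against 43.2% of all compared genes, and 7 were lowest in MI3, against 24.1%. The furthest were RSZ22 at 14.2 RPKM in MI3, against 23.61 RPKM in WT, and RSZ21 at 9.97 RPKM in MI3, against 14.4 RPKM in WT. None of 14 other splicing and RNA-binding genes passed 2-fold, with a median of 0.05, UBP1A being furthest at 40.9 RPKM in MI3, against 28.3 RPKM in WT. The 12 circadian clock genes had a median of 0.11 with 0 past 2-fold, PRR9 at 3.73 RPKM in MI3, against 1.49 RPKM in WT. The 12 cell division genes had a median of 0.08 with 0 past 2-fold, although the cyclin-dependent kinase inhibitors KRP2 and KRP1 were highest in MI3, with KRP2 at 15.6 RPKM in MI3, against 9.51 RPKM in WT.

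Chloroplast-encoded genes had a median of 0.20 over 102 genes, of which 70 lay above WT and 3 were at least 2-fold lower. MI3 had the highest value in 11 of them and the lowest in 31, against 35.6% and 24.1% of all compared genes. Mitochondrially encoded genes had a median of 0.38 over 50 genes, above the 75th percentile of all compared genes, 0.26. Of these 50, 41 lay above WT and 36 were highest in MI3, against 56.7% and 35.6% of all compared genes.

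Of the genes furthest from WT that belong to no list, several were also furthest from every other column. RTFL12, a small peptide that limits cell proliferation, was at 29.8 RPKM in MI3, against 3.64 RPKM in WT, and no other column passed 4.46 RPKM. AT4G33720, a secreted protein of the CAP family, was at 106 RPKM in MI3, against 17.9 RPKM in WT, with 4.87 to 13.4 RPKM in the other lines. The uncharacterized gene AT2G14230 was at 9.73 RPKM in MI3, against 0.117 RPKM in WT, and AT1G33055 at 26 RPKM in MI3, against 3.9 RPKM in WT. The organic cation transporter OCT1 was at 12.2 RPKM in MI3, against 1.29 RPKM in WT. The knottin-like gene AT2G43535 was at 372 RPKM in MI3, against 53.2 RPKM in WT, with OE3 next at 114 RPKM. On the lower side, the DnaJ-domain gene AT1G72416 was at 4.19 RPKM in MI3, against 72.2 RPKM in WT, with 29.3 to 132 RPKM in the other lines. The HSP20-like gene AT4G21870 was at 17.79 RPKM in MI3, against 153 RPKM in WT. The efflux family gene AT3G23550 was at 1.39 RPKM in MI3, against 19.4 RPKM in WT, and the inositol oxygenase MIOX2 at 19.6 RPKM in MI3, against 87.4 RPKM in WT. AT4G15700, of the thioredoxin superfamily, was at 1.42 RPKM in MI3, against 11.2 RPKM in WT, and the acyltransferase AACT1 at 0.79 RPKM in MI3, against 5.83 RPKM in WT, and in all 6 of these the MI3 value was the lowest of the 6 columns.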

How the data were processed

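RNA-seq of whole Arabidopsis seedlings was analysed from 1 deposited table of RPKM values, which the authors made with 1 column for each of 6 genotypes. Per the submitters' processing notes, TAIR10 was the genome build. How reads were aligned, counted, assigned to strands and shared among several matches is not given in these sources, and near-identical copies (the PDF1.2 defensins, RBCS genes, extensins, BHLH38 and BHLH39, metallothioneins) and overlapping or antisense genes are therefore uncertain. The table gives 1 RPKM column for MI3 (1 library) and 1 for WT (2 libraries), and 1 WT cell without a number was read as 0. Depth was recovered from the steps between low values of single-exon genes, of which 72.3% to 79.9% lay within 0.1 of a whole read. Of the identifiers 32835 matched the TAIR10.1 annotation, which gave symbols, coordinates and sequences.

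Genes with at least 1 RPKM in at least 2 columns were compared on the log2(RPKM + 1) scale with pandas 2.3.3 and numpy 2.4.6 under Python 3.11.15. Intervals came from scipy 1.17.1, and figures from matplotlib 3.10.9. No test was possible with 1 column a group. The comparison and the 44 lists were chosen with earlier results of these data known. The genes counted as named below were chosen by rule. They included the PTB genes, compared microRNA loci of the lists, and the 15 genes furthest from WT each way. The 10 furthest each way from the other columns were added, and both of these sets had at least 5 RPKM in MI3 or WT. From each list came the 4 members furthest past 2-fold each way, or the 2 furthest from WT where none was past it. Not all genes of the rule are described above, and PYD4, DIP2 and LTI78 are among those left out. Which of them are described, the other genes described, and the subgroups, families, runs and motifs were chosen after the values were seen. The calculations were tested on simulated data. Other pseudocounts, filters, scalings and controls were tried.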

Additional observations from a re-analysis of the deposited data

How the results depend on the processing

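With a pseudocount of 0.1 RPKM in place of 1, 834 genes were at least 2-fold higher in MI3 than in WT, against 508, and 597 lower, against 407. Under the other settings the counts stayed within 1.5 times: 364 to 634 genes were higher and 294 to 480 lower. Median-of-ratios scaling gave 471 higher and 445 lower, and quantile normalization 462 and 456. With the median of MI12, OE1, OE2 and OE3 as control in place of WT, 503 genes were higher and 294 lower, of which 387 and 242 were among those counted against WT. Under that control 16 of 127 named genes past 2-fold no longer were, 3 changed sign, and HSP17.6II turned to 0.07, against -1.50. Of 7 list medians past 2-fold 3 fell short under it, with -0.49 for small heat shock proteins against -1.50, -0.84 for Rubisco and Calvin cycle against -1.04, and 0.82 for membrane lipids against 1.07. Another 5 list medians, all within 0.36 of 0, changed sign, among them heat shock chaperones at 0.07 against -0.31. With at least 5 RPKM in 2 columns the copper list turned to -0.28, against 0.11. With no filter on low values, 2 list medians fell short, ethylene-jasmonate defence at -0.86 against -1.87 and membrane lipids at 0.91. Both scalings left 3 named genes short of 2-fold each. A minimum of 5 RPKM in the higher of MI3 and WT, chosen after seeing the data, gave 455 higher and 353 lower. No paired analysis was possible because each genotype has 1 column. Leaving out a replicate could not be run, because the columns do not separate libraries. The MI3 column rests on 45.9 M reads, fewer than any other column, which limits low genes most.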
